A study of Mus musculus with 6 samples.

Results

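The genes described here encode the constitutive subunits of the proteasome. They were taken as all probe sets whose single annotated symbol starts with Psma, Psmb, Psmc or Psmd and a number, leaving out the inducible subunits Psmb8, Psmb9 and Psmb10. That gave 45 of the 12488 probe sets on the array and 35 of 8252 named genes. RNA of mouse peritoneal exudate cells (peritoneal macrophages in other labels), all of strain C57BL/6, was hybridised to 6 single-colour Affymetrix arrays. Wild-type mice (WT), mice without NF-IL6 (KO) and a knock-in line labelled NF-IL6 KI(LAP) (KI) each gave 1 array of untreated cells and 1 of cells given lipopolysaccharide with interferon-γ. NF-IL6 is the transcription factor C/EBPβ, encoded by Cebpb, and LAP is its long, activating form. The KO and KI labels put stimulation at 12 h, and the WT label gives no time. The labels give no dose, age or number of animals per array and do not describe how the lines were made. No group has a replicate, so a difference between single arrays has no replicate check.

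The proteasome is the protease that degrades ubiquitin-tagged proteins and supplies most of the peptides shown on MHC class I. Its core particle stacks outer α rings, which gate the entrance, on inner β rings, which hold the active sites. A regulatory particle of base and lid recognises the substrate, removes its ubiquitin and unfolds it. Under interferon-γ, inducible catalytic subunits replace the constitutive ones in newly made cores, giving the immunoproteasome.

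Signals are MAS5 intensities brought to 1 trimmed mean, and any under a floor of 98.0 was set to the floor before log2 was taken. Of the 45 probe sets, 40 (33 genes) were above the floor on at least 1 array. The other 5 were the only probe sets of Psmc4, an ATPase, and of Psmc3ip, and further probe sets of Psmb1, Psmb4 and Psmc5. Psmc3ip is a meiotic recombination factor that meets the rule by its letters and is no subunit. Cebpb had signals of 5492 untreated and 9329 stimulated in WT, 2284 and 5889.9 in KI, and 12.7 and 59.0, both under the floor, in KO cells; where its probes lie in the gene was not examined here. All 8 measured macrophage markers were above the floor on some array, and their summed signal was 57228 to 59834 on untreated and 35174 to 47956 on stimulated arrays. They did not move alike. By the limma test used below, Adgre1 rose (log2 change 1.24, adjusted p = 0.00908). Cd68 and Mrc1 fell (log2 changes -0.64 and -2.58, limma adjusted p = 0.0306 and 0.0184), and 5 did not pass. Sums for other cells were 1309 to 3781 on untreated and 1008 to 1767 on stimulated arrays for 5 B cell markers, and 394 to 812 on untreated and 442 to 544 on stimulated arrays for 6 T cell markers, of which Cd3d, Cd3e, Cd3g and Cd8a were never above the floor. They were 909 to 1569.6 on untreated and 624 to 1920.3 on stimulated arrays for 7 neutrophil markers (Ngp and S100a9 under the floor) and 1779 to 2348 on untreated and 1226 to 1689 on stimulated arrays for 5 mast cell markers (Kit under the floor). They were 1944 to 2715 on untreated and 1777 to 2703 on stimulated arrays for 6 mesothelial and fibroblast markers (Krt19 and Msln under the floor), and 1222 to 3296 on untreated and 703 to 1351 on stimulated arrays for 6 markers of dividing cells. Each sum takes the brightest probe set of a gene, and dimmer collagen sets moved otherwise. In WT, KO and KI cells a dimmer Col1a1 set read 46.2, 95.5 and 410.7 untreated and 1029.9, 194 and 393 stimulated. A dimmer Col1a2 set read 59.6, 56.8 and 415 untreated and 974, 254 and 373 stimulated. Both sets were higher with stimulation in WT and KO cells and slightly lower in KI cells. In bulk samples fewer cells of a type and less RNA per cell cannot be told apart, and the part of these shifts in the results was not tested.

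After stimulation, constitutive proteasome genes were mostly higher. Of 33 genes, 10 rose, 0 fell and 23 did not pass the test (limma, additive fit of state and genotype, Benjamini-Hochberg adjusted p under 0.05 over 9344 probe sets). As probe sets these are 10 of 40, or 25%, where 5.03% of all probe sets rose and 6.01% fell. By unadjusted p under 0.05 in limma, 22 of the 40 were higher and 1 lower, beside 9.89% and 17.3% of all. In 21 probe sets (19 genes) the 3 stimulated arrays all lay above the 3 untreated ones, and in 1 all lay below, beside 9.77% and 17.2% of all. Signals were higher with stimulation in every genotype for 27 and lower in every genotype for 2, beside 15.4% and 27.4% of all. The median log2 change was 0.41 over the 40 probe sets and 0.48 over the 33 genes, beside -0.12 over all probe sets. Centring each array on its median moved the value over all probe sets to 0.04 and the share of calls that are higher from 45.5% to 61.2%, and 13 of the 40 then rose. With any 1 array left out, which leaves a single residual degree of freedom, 0 of the 40 passed (12 to 21 higher by unadjusted p), and the median change was 0.36 to 0.46.

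**Figure D1:**
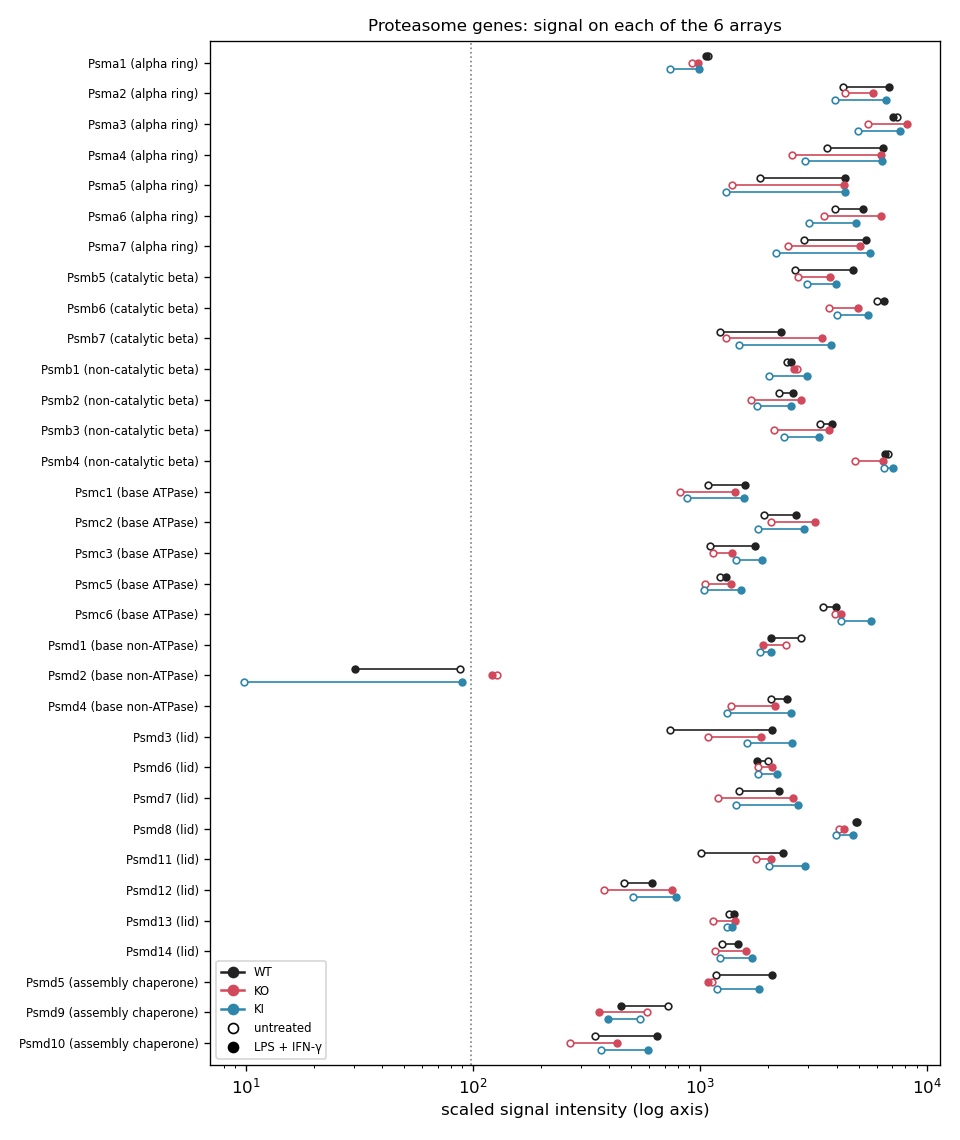
Scaled signal intensity (horizontal, log axis) of the brightest probe set of each of the 33 genes (vertical, by role) on the untreated (open circle) and stimulated (filled circle) array of WT, KO and KI cells; the dotted line is the floor of 98.0. Lengths of lines, not positions, can be compared between genes, and the 3 filled Psma5 points nearly coincide to the right of the 3 open ones.

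The α ring, whose gate controls entry to the core, held 5 of the 10 genes that rose. It has 7 genes, with a median log2 change of 0.64. In the order WT, KO, KI, used for all signals from here on, Psma5 read 1847, 1388 and 1297 untreated and 4343, 4317 and 4371 stimulated (log2 change 1.54, SE 0.15, limma adjusted p = 0.00679). The stimulated arrays spanned 1.01-fold from lowest to highest and the untreated ones 1.42-fold. Psma5 had the largest mean change of the 33 genes and was alone among them in reaching 1 in log2 in every genotype. Psma4 read 3622, 2551 and 2905 untreated and 6389, 6294 and 6353 stimulated (log2 change 1.08, SE 0.14, limma adjusted p = 0.0138), with its stimulated arrays spanning 1.02-fold. Psma7 read 2864, 2455 and 2155 untreated and 5404, 5071 and 5618 stimulated (log2 change 1.12, SE 0.14, limma adjusted p = 0.0130), and neither gene's states overlapped.

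Psma2 and Psma6 rose less. Psma2 read 4249, 4364 and 3918 untreated and 6773, 5774 and 6604 stimulated (log2 change 0.61, SE 0.12, limma adjusted p = 0.0434), and Psma6 3932, 3535 and 3037 untreated and 5236, 6289.6 and 4857 stimulated (log2 change 0.64, SE 0.13, limma adjusted p = 0.0433). In both, every stimulated array exceeded every untreated one, but a floor at the 20th percentile ended the calls (adjusted p = 0.0531 and 0.0506), as did quantile normalization and a fit without the intensity trend. Psma3 read 7398, 5518 and 4951 untreated and 7102, 8144 and 7642 stimulated, and Psma1 1090.3, 921 and 742 untreated and 1063, 979 and 993 stimulated. These 2 did not pass (log2 changes 0.38 and 0.16, limma adjusted p = 0.243 and 0.569), and their states overlapped.

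Promoters are shown for the gene with the largest rise, for 2 other α subunits that rose and for the catalytic subunit Psmb5. They come from a set of RefSeq promoters (assembly GRCm38.p6) and run from 250 bases before to 50 after the annotated start. The set used here held 29 of the 35 genes, and Psmb7, Psmd3 and Psmd7, which rose, were not in it. Both strands were searched for TGACNNNGC (core of the antioxidant response element, bound by NRF1 and NRF2), CCAAT (bound by NF-Y), TTGCNNAA (a core of C/EBP sites) and a core of interferon-stimulated response elements (GAAA, any 2 bases, GAAA). Sequences run 5′ to 3′ on the gene's strand, and capitals mark every match. Psma5 is at chr3:108256676-108256975 (+), Psma6 (the first of its windows) at chr12:55383972-55384271 (+), Psma7 at chr2:180042415-180042714 (-) and Psmb5 at chr14:54617946-54618245 (-).
Psma5: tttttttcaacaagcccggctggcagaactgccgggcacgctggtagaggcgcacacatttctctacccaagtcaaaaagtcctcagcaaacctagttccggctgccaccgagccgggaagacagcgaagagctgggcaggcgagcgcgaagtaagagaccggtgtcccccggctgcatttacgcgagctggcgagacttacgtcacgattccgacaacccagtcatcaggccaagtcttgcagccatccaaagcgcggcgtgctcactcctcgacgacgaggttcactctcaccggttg
Psma6: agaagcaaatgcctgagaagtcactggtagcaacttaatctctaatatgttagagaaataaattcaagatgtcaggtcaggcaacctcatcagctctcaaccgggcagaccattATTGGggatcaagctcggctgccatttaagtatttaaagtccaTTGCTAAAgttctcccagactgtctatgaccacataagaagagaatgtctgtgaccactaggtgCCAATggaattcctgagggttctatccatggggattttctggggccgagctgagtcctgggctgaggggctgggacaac
Psma7: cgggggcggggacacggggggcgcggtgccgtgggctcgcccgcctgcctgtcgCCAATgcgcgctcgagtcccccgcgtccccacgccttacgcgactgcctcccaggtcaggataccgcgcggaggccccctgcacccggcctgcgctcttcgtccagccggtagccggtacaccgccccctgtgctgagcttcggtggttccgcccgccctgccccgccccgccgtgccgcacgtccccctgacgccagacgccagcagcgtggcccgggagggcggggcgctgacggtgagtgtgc
Psmb5: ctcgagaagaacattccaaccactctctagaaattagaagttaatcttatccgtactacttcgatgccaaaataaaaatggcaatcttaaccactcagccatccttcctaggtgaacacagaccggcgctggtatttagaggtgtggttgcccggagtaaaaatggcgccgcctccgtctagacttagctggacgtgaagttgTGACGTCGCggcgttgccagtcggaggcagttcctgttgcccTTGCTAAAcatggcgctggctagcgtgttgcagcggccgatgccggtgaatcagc
The Psma5 window holds none of the 4 motifs, and neither does that of Psma4, which also rose and is not shown. Counted from the start site, the Psma6 window shown has CCAAT beginning at -136 (opposite strand) and -29 and the C/EBP core at -93, while the second Psma6 window, at another listed start, has none of the 4. In Psma7, CCAAT begins at -196. Psmb5 has the antioxidant core at -47 and the C/EBP core at -5. Over all 31 windows of the 29 genes, CCAAT was in 38.7%, the antioxidant core in 16.1%, the C/EBP core in 9.68% and the interferon core in 9.68%. In all 32851 windows of that length the shares were 37.4%, 12.4%, 10.8% and 3.44%. The antioxidant core was in Psmb5, Psmb6, Psmc6, Psmd9 and Psmd12, and the interferon core in Psmb3, Psmd4 and Psmd9. CCAAT was in 5 of the 7 genes with a window that rose and 7 of the other 22, counting a gene with 2 windows if either has it. Those 22 are not all tested subunits: they include Psmc4 and Psmc3ip, which were under the floor on all arrays. Psmc3ip, which is no subunit, is among those with CCAAT. Among the 5 that rose, Psma6 and Psmc2 each have CCAAT in 1 of their 2 windows. Of the same 7 and 22 genes, the antioxidant core was in 0 and 5, the C/EBP core in 1 and 2 and the interferon core in 0 and 3. These splits were not tested. No bases were shared between matches of different motifs, and a match of letters is no measured site.

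Among the active-site subunits, Psmb7, which carries the trypsin-like activity, rose. It read 1225, 1302 and 1492 untreated and 2277, 3445 and 3785 stimulated (log2 change 1.21, SE 0.15, limma adjusted p = 0.0133), lowest in WT in both states. Psmb5, the chymotrypsin-like subunit, read 2629.7, 2699 and 2970.4 untreated and 4706, 3746 and 3979 stimulated on its brighter probe set, without overlap (log2 change 0.58, SE 0.14, limma adjusted p = 0.0603). It did pass with a floor at the 60th percentile, a pseudocount of 50 or median centring (adjusted p = 0.0475, 0.0343 and 0.0207). Psmb6, the caspase-like subunit, read 6020.3, 3686 and 3996 untreated and 6496, 4966 and 5517 stimulated and overlapped (log2 change 0.33, SE 0.13, limma adjusted p = 0.175). The inducible subunits that take their places rose by 2.06 (Psmb8), 2.35 (Psmb9) and 2.08 (Psmb10) in log2 (limma adjusted p = 0.00160, 0.00214 and 0.00185).

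None of the 4 non-catalytic β genes, which complete the inner rings, passed the test. Psmb2 read 2224, 1676 and 1777 untreated and 2575, 2785 and 2530.3 stimulated, without overlap (log2 change 0.48, SE 0.15, limma adjusted p = 0.111). Psmb3 read 3389, 2113 and 2356 untreated and 3815, 3703 and 3350.2 stimulated, and its untreated WT signal lay inside the stimulated range (log2 change 0.50, SE 0.16, limma adjusted p = 0.124). The brightest sets of Psmb1 and Psmb4 had changes of 0.19 and 0.17. Over the 14 core genes, 6 rose and the median log2 change was 0.54.

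Of the 16 regulatory particle genes measured, 4 rose, and the median log2 change was 0.41. The base ATPases unfold the substrate and open the α gate, and 2 of the 5 measured rose. Psmc1 read 1084, 817 and 874 untreated and 1576, 1427 and 1568 stimulated (log2 change 0.73, SE 0.14, limma adjusted p = 0.0387), and Psmc2 1923, 2066 and 1805 untreated and 2641, 3198 and 2862 stimulated (log2 change 0.58, SE 0.12, limma adjusted p = 0.0422), both without overlap. On their brightest sets Psmc3, Psmc5 and Psmc6 were higher with stimulation in every genotype, with mean changes of 0.44, 0.34 and 0.24 that did not pass. The next brightest Psmc3 set had a change of -0.06 in KO cells. Without the intensity trend both calls were lost, and that of Psmc2 also with quantile normalization.

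Of the 8 lid genes, 2 rose. Psmd7, the structural partner of the deubiquitinase Psmd14, read 1494, 1197 and 1442 untreated and 2239.8, 2577 and 2692 stimulated (log2 change 0.86, SE 0.15, limma adjusted p = 0.0301). Psmd3, a lid scaffold, read 739.7, 1088 and 1616 untreated and 2068, 1851 and 2532 stimulated (log2 change 0.97, SE 0.20, limma adjusted p = 0.0464). Its change was 1.48 in WT, 0.77 in KO and 0.65 in KI cells, and its untreated signals differed 2.18-fold. Both calls were lost without the intensity trend, and that of Psmd3 also with quantile normalization. Psmd14, which cuts ubiquitin off the substrate, read 1249.5, 1165 and 1222 untreated and 1473, 1590.1 and 1704 stimulated, without overlap (log2 change 0.39, SE 0.13, limma adjusted p = 0.139). Psmd12 and Psmd11 had changes of 0.68 and 0.65, also without overlap, and Psmd6, Psmd8 and Psmd13 of 0.11, 0.11 and 0.16, none past the test.

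The base also holds a ubiquitin receptor and large scaffolds, none of which passed. Psmd4, the receptor, read 2049, 1366 and 1309.9 untreated and 2426, 2144 and 2527 stimulated, without overlap (log2 change 0.61, SE 0.17, limma adjusted p = 0.0925). Psmd1, a scaffold, read 2793, 2386 and 1839 untreated and 2066, 1896 and 2053 stimulated (log2 change -0.20, SE 0.16, limma adjusted p = 0.476), lower with stimulation in WT and KO and higher in KI cells. Psmd2, the other scaffold, read 87.5, 128 and 9.80 untreated and 30.3, 122 and 89.6 stimulated (log2 change -0.03, SE 0.10, limma adjusted p = 0.892), above the floor on the KO arrays only, so that its WT and KI changes are 0 by the floor.

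The assembly chaperones that carry a Psmd name help build the base and leave the finished particle, and none passed. Psmd10 (gankyrin) read 344, 267 and 366 untreated and 649, 433 and 589.9 stimulated, without overlap (log2 change 0.77, SE 0.20, limma adjusted p = 0.0793). Psmd9 had the lowest change of the 33 genes: it read 722, 587 and 545 untreated and 449.8, 361 and 393 stimulated, every stimulated array below every untreated one (log2 change -0.62, SE 0.19, limma adjusted p = 0.109). Its only probe set carries the letter code r before the ending _at. Psmd5 read 1178, 1129 and 1191 untreated and 2073, 1090.4 and 1829.5 stimulated, with the stimulated KO array apart from the other 2 (log2 change 0.46, SE 0.21, limma adjusted p = 0.231).

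**Figure D2:**
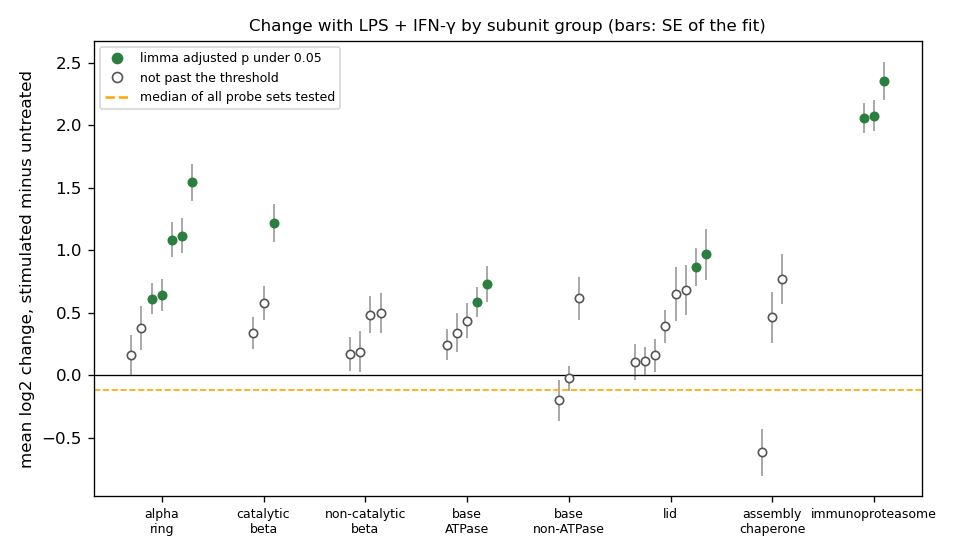
Mean log2 change with stimulation over the 3 genotypes (vertical; bars are the SE of the fit) for the brightest probe set of each gene, by subunit group (horizontal), with the inducible subunits at the right. Filled points passed the limma test, and the dashed line is the median of all 9344 probe sets, -0.12; 5 of the 10 filled constitutive points are in the α ring.

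The response was set side by side in the 3 genotypes, where single pairs of arrays allow no test. The WT label gives no time of stimulation, beside 12 h for KO and KI. A difference in time could therefore not be told apart from genotype. The median log2 change of the 40 probe sets was 0.21 in WT, 0.42 in KO and 0.51 in KI cells, beside -0.12, -0.05 and 0 over all. The values over all depend in part on the floor, since a probe set at the floor on both arrays has a change of 0. Of all probe sets 37.5%, 35.1% and 32.5% were above 0 and 56.9%, 52.7% and 49.3% below, and the rest lay at 0. Of the 40, 1, 0 and 1 lay at 0. Equal changes count as not below in the next comparison. The WT change was below both others in 27 of 40 probe sets (22 of 33 genes), or 67.5%, beside 39.4% of all. Psma5 differed 2.35-fold, 3.11-fold and 3.37-fold between states in WT, KO and KI cells, and Psmb7 1.86-fold, 2.65-fold and 2.54-fold. For Psma3 the ratios were 0.960-fold, 1.48-fold and 1.54-fold. Psmd3 and Psmb5 had the opposite order, at 2.80-fold, 1.70-fold and 1.57-fold and at 1.79-fold, 1.39-fold and 1.34-fold. A change of at least 1 in log2 was reached by 3 probe sets in WT, 5 in KO and 5 in KI cells, or 7.5%, 12.5% and 12.5%, beside 8.54%, 6.54% and 5.58% of all.

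Before stimulation, most of these genes read lower in KO and KI than in WT cells. The KO signal was below WT in 29 of 40 probe sets and the KI signal in 28, beside 52.8% and 56.9% of all. Both were below in 25, or 62.5%, beside 44.8%. These comparisons share the untreated WT array, which the WT changes with stimulation use too. The median difference from WT in log2 was -0.23 in KO and -0.22 in KI cells, beside -0.04 and -0.11 over all. With median centring these became -0.23 and -0.04. Psmb3, Psmd4, Psma4 and Psma5 show WT as the highest untreated array, and Psmd3 and Psmb7 show it as the lowest. After stimulation the medians were -0.04 and 0.00, with 24 and 19 probe sets below WT (46.4% and 50.3% of all) and 15 below in both (37.4% of all). The signals of the genotypes lay closer together after stimulation in 28 of 40 probe sets, or 70%, beside 66.7% of all. That count depends on the scaling: it was 21 of 40 (52.5%, beside 62.1%) with median centring and 32 of 41 (78.0%, beside 64.4%) with quantile normalization. On the untreated WT, KO and KI arrays the B cell markers summed to 3781, 3540.3 and 1309 and those of dividing cells to 1222, 3296 and 1465, and their part in these differences was not tested.

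**Figure D3:**
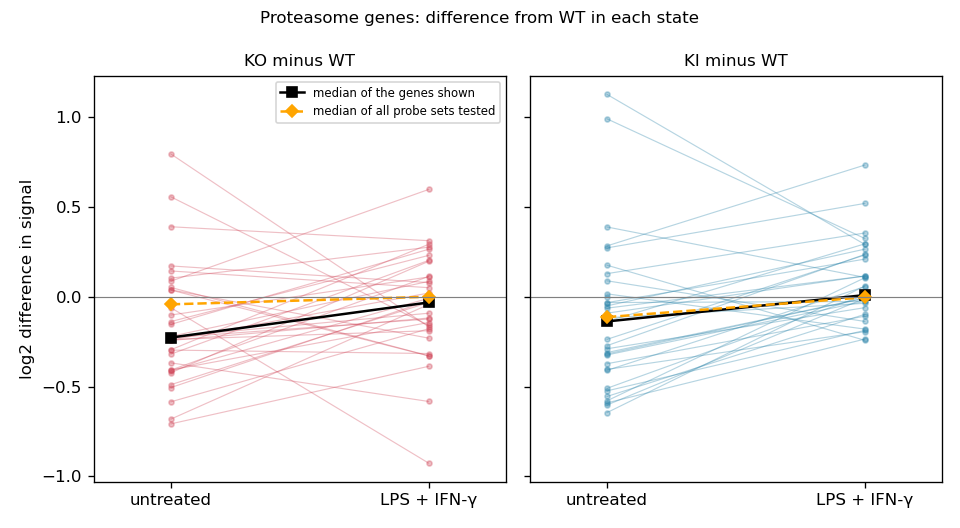
Log2 difference in signal from WT (vertical) for KO (left) and KI (right) in untreated and stimulated cells (horizontal), 1 thin line for each of the 33 genes; squares are their medians and diamonds those of all 9344 probe sets. The gene medians are -0.23 (KO) and -0.14 (KI) in untreated and -0.03 and 0.01 in stimulated cells.

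Over both states together, no proteasome gene passed the test between genotypes. By limma at adjusted p under 0.05, 0 of 40 probe sets passed for KO against WT, KI against WT or KI against KO, as did 0%, 0.0107% (1 probe set, lower in KI) and 0% of all. By unadjusted p under 0.05, 3, 4 and 1 of the 40 did, beside 10.1%, 17.1% and 7.52% of all. The lowest limma adjusted p was 0.432, 0.267 and 0.648 in turn, and the SE of a difference 0.13 to 0.36 in log2. Psmb6 was highest in WT in both states, with differences of -0.55 in KO and -0.41 in KI cells (SE 0.16, limma adjusted p = 0.432 and 0.281). Psmd3 was higher in KI than in WT cells by 0.71 (SE 0.25, limma adjusted p = 0.267). The largest KO difference, -1.003 (SE 0.36, limma adjusted p = 0.478), was on the dimmest of 3 Psmd11 sets, which read 284, 77.7 and 198 untreated and 261, 188 and 228 stimulated. Its untreated KO signal is under the floor and was raised to it, so the size of that difference depends on the floor. On the brightest Psmd11 set, which read 1013, 1758 and 2013 untreated and 2314, 2061 and 2898 stimulated, that difference was 0.31, the other way.

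In 5 of the 33 genes more than 1 probe set was above the floor, and these did not always move alike. For Psmb5 the brighter set had log2 changes of 0.84, 0.47 and 0.42 in WT, KO and KI cells, and the dimmer one -0.02, -0.28 and -0.64. The dimmer set read 383, 345 and 288 untreated and 378, 283 and 184 stimulated, so the sets had opposite signs in every genotype, and its KI minus WT difference was -0.73 (SE 0.31, limma adjusted p = 0.320). The 3 Psmd11 sets had mean changes of 0.65, 0.66 and 0.34, the brightest moving most in WT (1.19) and the next most in KI cells (1.37). The Psmc3 sets had 0.44, 0.12 and 0.19, the Psmb1 sets 0.19 and 0.37, and the Psmb4 sets 0.17 and -0.04. None of these sets passed the test, and all 10 genes that rose have 1 probe set each.

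**Figure D4:**
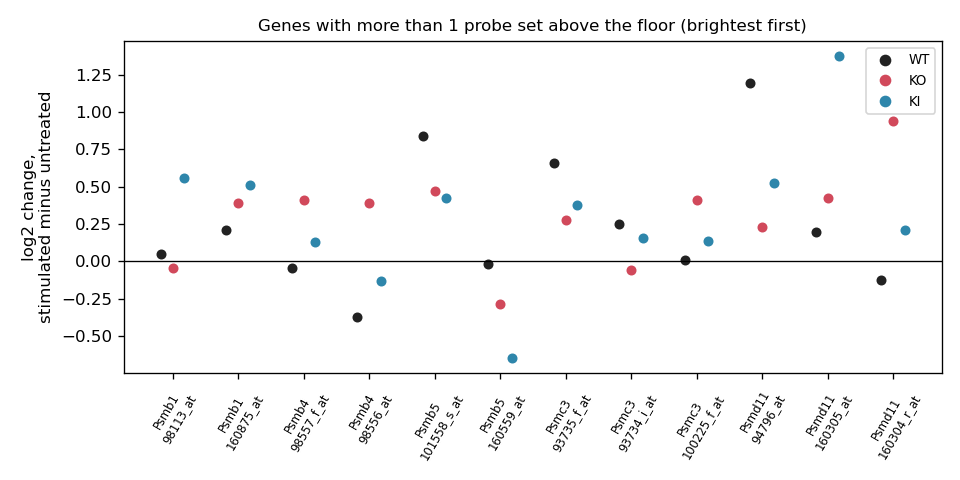
Log2 change with stimulation (vertical) in WT, KO and KI cells, 1 point per pair of arrays, for each probe set of the 5 genes with more than 1 above the floor (horizontal, brightest first). The Psmb5 sets lie on opposite sides of 0, with means of 0.58 and -0.32.

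Of the other pathway genes listed, 22 could be tested. The 3 inducible subunits and Psme1, an interferon-inducible activator that caps the core, rose, and the remaining 18 neither rose nor fell by the test. Psme1 read 2064, 1608 and 1927 untreated and 8208, 7808 and 8833 stimulated (log2 change 2.16, SE 0.12, limma adjusted p = 0.00157). The core activators Psme4 and Psme3 had changes of 0.81 and -0.12 (limma adjusted p = 0.111 and 0.673). Among 5 assembly chaperones without a Psmd name, Pomp, the maturation factor of the core, read 3757, 2277 and 2909.8 untreated and 4672, 5559.5 and 6231 stimulated (log2 change 0.90, SE 0.22, limma adjusted p = 0.0634), and the other 4 had changes of -0.44 to 0.17. The deubiquitinases Usp14 and Uchl5 had -0.06 and -0.38, and Vcp, the segregase that extracts ubiquitinated proteins, 0.25. Nfe2l1, which encodes NRF1, an activator of proteasome genes, read 707, 1312 and 1779 untreated and 1718, 1735 and 2178 stimulated on its brighter set (log2 change 0.66, SE 0.23, limma adjusted p = 0.150).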

How the data were processed

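The deposited table gives linear intensities for 12488 probe sets, which, per the submitters' processing notes, the authors computed by MAS5 in a version not given in the sources used here. Trimmed means (2% off each tail) were 500.3 to 500.4, and arrays were brought to their mean. Signals below the 40th percentile (98.0) were raised to it before log2. Without 66 control probe sets, 12422 remained, of which 9344 exceeded that floor on 1 array or more and were tested. Symbols are those of the platform annotation.

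In R 4.3.3, limma 3.58.1 fitted state and genotype additively to all 6 arrays (2 residual degrees of freedom, eBayes with a trend on intensity, Benjamini-Hochberg over all tested, threshold 0.05). The error therefore mixes differences in response between genotypes with variation between animals and arrays. With a single array in each group these sources cannot be separated. A gene with several probe sets is represented by the brightest. Full values are given for probe sets past the stimulation test, the 3 highest and 3 lowest changes, the 4 largest genotype differences and catalytic subunits; other genes given in full were added after their values were seen. Members, lists and tests were chosen with earlier results of these data known.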

Additional observations from a re-analysis of the deposited data

Results flagged for a closer look

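In 6 of the 62 probe sets checked from the proteasome and its pathway, the log2 change with stimulation had opposite signs in 2 genotypes and differed by at least 1. Not every pathway probe set above the floor was checked. None of these differences was tested, since each change comes from 1 pair of arrays. The dimmest Psmd11 probe set had 0.94 in KO cells, where its untreated signal of 77.7 was under the floor, and -0.12 in WT cells. Psmg1, an assembly chaperone, had 0.29 in KO and -0.80 in WT cells. Ecpas, a proteasome adaptor, had 3.06 in WT, where its untreated signal of 89.8 was under the floor, and -0.029 in KI cells. Ubqln2, a ubiquitin shuttle, had 0.60 in WT and -0.89 in KI cells. Ufd1, a partner of the segregase Vcp, had 0.61 in KI and -0.81 in WT cells. Nfe2l2, which encodes NRF2, had 0.34 in WT and -0.96 in KO cells.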

How the results depend on the processing

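The labels number no replicates, so no pairing by replicate could be added. The block on genotype, which pairs each stimulated array with the untreated one of its genotype, is already in the fit. The median change of the proteasome probe sets with stimulation was 0.36 to 0.58 over 18 alternatives. The number that rose, 10, was 6 with quantile normalization and 5 without the intensity trend, and the cause was not tested. It was 0 with no filter, where 3078 of 12422 probe sets lie at the floor on every array and have no variance. It was 0 to 0 without any single array, 0 without both arrays of WT, KO or KI, and 8 to 13 in the remaining alternatives. Median centring moved the median change to 0.69 in KI and 0.60 in KO cells and the stimulated KI minus WT median to 0.24. It turned the KI minus WT median over both states from -0.07 to 0.14; these shifts follow from moving whole arrays. With all arrays kept, Psma4, Psma5, Psma7 and Psmb7 passed in 7 of 8 alternatives, failing only with no filter. These 8 leave out a further alternative, which keeps only proteasome probe sets whose names carry no letter code before the ending _at. It held 30 of the 40 proteasome probe sets, of which 9 rose. The only probe sets of Psmb7 and Psmd9 carry such a code, so that alternative could check neither gene. Single arrays per group limit the precision of every value.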
